A study of Mus musculus with 16 samples.

Results

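Nitric oxide and arginine metabolism was followed through 7 genes chosen by name: Nos2, Gch1, Ass1, Slc7a2, Arg1, Arg2 and Odc1. Of these 7 genes, 6 had a probe set assigned to a single gene symbol, out of 19272 such genes on the array, and Ass1 is not analysed here. Of those 6 genes, 5 passed the filter on low values and stood among the 10236 genes tested. Arg1 lay below that filter on all arrays. The cells were dendritic cells grown from bone marrow of C57BL/6 mice in medium to which GM-CSF, a growth factor of the myeloid lineage, was added at 10 ng/mL. The 4 groups were medium at 290 mOsm/L without LPS, 290 mOsm/L with LPS, 450 mOsm/L without LPS and 450 mOsm/L with LPS. The higher osmolarity was made with NaCl from day 3. Cells were collected on day 7 and plated for 6 h, with LPS at 10 ng/mL where it was given. LPS is a bacterial cell wall component. Cells of the same 4 mice went into each of the groups, which makes 4 arrays per group, and the cells are a mixed culture from which no sorting is stated in the labels.

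Arginine has competing fates in myeloid cells. Inducible nitric oxide synthase, the product of Nos2, oxidises it to nitric oxide and citrulline and needs tetrahydrobiopterin, whose first synthetic enzyme is the product of Gch1. Arginases split it into ornithine and urea, with the Arg1 enzyme in the cytosol and the Arg2 enzyme in mitochondria, and the Odc1 enzyme turns ornithine into the polyamine putrescine. Slc7a2 encodes a cationic amino acid transporter that imports arginine, and Ass1 encodes an enzyme that rebuilds arginine from citrulline.

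Promoter sequence was at hand for Gch1 and Odc1, which moved in opposite directions when LPS was given at 290 mOsm, and both are shown for that reason. The sequences are from RefSeq on build GRCm38.p6 and end at the last base before the annotated gene. The Gch1 window covers chr14:47189414-47189663 on the minus strand, 250 bases. The Odc1 window covers chr12:17544623-17544807 on the plus strand, 185 bases. Capitals mark the motif matches described in the next paragraph.
Gch1: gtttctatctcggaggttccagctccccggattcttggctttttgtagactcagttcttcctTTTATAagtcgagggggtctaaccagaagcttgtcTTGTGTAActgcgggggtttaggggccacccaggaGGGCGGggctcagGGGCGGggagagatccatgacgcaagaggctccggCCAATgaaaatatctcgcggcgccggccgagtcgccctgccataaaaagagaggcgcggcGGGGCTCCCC
Odc1: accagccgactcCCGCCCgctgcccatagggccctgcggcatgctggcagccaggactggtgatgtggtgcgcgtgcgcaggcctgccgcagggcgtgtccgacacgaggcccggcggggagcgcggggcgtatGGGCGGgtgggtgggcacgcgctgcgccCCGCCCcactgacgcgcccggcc

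Both strands were searched for 10 motifs. For inflammatory signals these were the kappa B consensus of NF-kB, a pair of GAAA repeats with any 2 bases between them (interferon regulatory factors), TTCNNNGAA (a site of STAT factors) and TTNNGNAA (a site of C/EBP factors). For hypoxia ACGTG was searched, the core of its response element. For growth signals CACGTG was searched, the E-box, which contains the hypoxia core. For osmotic stress the letters were TGGAAA, a core that its response element holds. The general promoter elements were TATAAA, then CCAAT, and lastly the GC box, GGGCGG. The Gch1 window held 1 match to the kappa B consensus, GGGGCTCCCC, in its last 10 bases, and 7.25% of all 32851 promoter windows of that length held at least 1. It also held 1 TTNNGNAA (36.8% of windows), 1 TATAAA on the opposite strand (12.4%), 1 CCAAT (33.8%) and 2 GC boxes (32.7%). The Odc1 window, with a GC content of 77.8% against 59.2% for Gch1, held 3 GC boxes (21.8% of windows of 185 bases) and no match to the other motifs. That window was cut at 185 bases, where the annotated gene begins, and the compared windows are the first 185 bases of each promoter sequence. Bases beyond that point were not searched for Odc1, so an element there would be missed. These matches are descriptions of letters and show no binding.

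Values are log2 signals, and the median of an array ranged from 6.78 to 6.93. The filter asked for a value over 6.83, the median of the whole table, on 4 or more arrays, and a gene was called where limma gave a p below 0.05 after Benjamini-Hochberg adjustment. The dendritic cell markers Itgax (group means 11.41 to 12.13) and H2-Ab1 (13.28 to 13.40) were high, while Cd209a, Itgae and Xcr1 lay below the filter. The macrophage marker Adgre1 (11.55 to 12.58) was high too. Neutrophil markers fell with salt, 14 of 16 tested in each salt comparison. Of all genes tested, salt lowered 23.7% and raised 20.6% without LPS, and lowered 21.8% and raised 16.8% with LPS. Their summed level, as log2 of the summed signal over 17 markers, was 14.75 to 15.14 at 290 mOsm, 12.46 to 12.65 at 450 mOsm, then with LPS 15.16 to 15.47 at 290 mOsm and 13.87 to 13.96 at 450 mOsm. At 450 mOsm, 10 of the 17 had means below the filter level, without and with LPS. The largest part of the sum at 450 mOsm was Mmp8 without LPS (mean 12.12) and Lcn2 with LPS (13.41). At 450 mOsm without LPS, Lcn2 was at 7.96. The median salt change of the 16 tested neutrophil markers was -2.79 without LPS and -2.26 with LPS. The summed level of 13 macrophage markers was 15.44 to 15.48 at 290 mOsm, 15.28 to 15.34 at 450 mOsm, then with LPS 15.43 to 15.48 at 290 mOsm and 15.08 to 15.20 at 450 mOsm. For 8 mast cell and basophil markers it was 10.08 to 10.86, 9.14 to 9.29, 11.18 to 11.96 and 10.55 to 10.78 in the same order. With LPS the largest part of that sum was Hdc, whose means were 7.27 and 6.57 without LPS and 10.35 and 10.02 with it, while Fcer1a and Ms4a2 lay below the filter. For 5 monocyte markers it was 12.17 to 12.25, 11.68 to 12.45, 12.96 to 13.18 and 12.00 to 12.34, and for 14 dendritic cell markers 14.72 to 14.77, 14.75 to 14.82, 14.72 to 14.79 and 14.80 to 14.85. The monocyte sum joins markers that moved in both directions. LPS raised 3 and lowered 2 of the 5 at each osmolarity, where 26.4% of all genes tested were higher. In that comparison 47.1% of all genes were lower at 290 mOsm and 45.3% at 450 mOsm. With LPS at 290 mOsm, Ccr2 went from 10.97 to 8.45 and Vcan from 7.10 to 11.66. The dendritic cell sum, mostly H2-Ab1 and H2-Aa, and the macrophage sum also join markers that moved in both directions. Of 11 tested dendritic cell markers, LPS raised 4 and lowered 4 at 290 mOsm, and raised 3 and lowered 5 at 450 mOsm. Salt raised 3 and lowered 1 without LPS, and raised 3 and lowered 3 with LPS. Of 12 tested macrophage markers, LPS raised 6 and lowered 6 at each osmolarity. For 5 plasmacytoid dendritic cell markers the summed level was 11.72 to 11.90, 12.16 to 12.34, 13.49 to 13.59 and 13.66 to 13.73. Bst2 was the largest part of that sum, with means of 11.13 and 11.71 without LPS and 13.01 and 13.18 with it, while Siglech lay below the filter, with means of 5.93 to 6.04. For 5 T cell markers it was 9.50 to 9.94, 8.92 to 9.26, 9.10 to 9.53 and 8.80 to 8.95, with Cd4 the largest part and Cd3d and Cd3g below the filter. For 4 eosinophil markers it was 9.69 to 9.83, 10.00 to 10.44, 9.06 to 9.35 and 8.99 to 9.16, with Siglecf the largest part and Epx below the filter. Of the 3 tested, salt raised 1 and lowered 2 without LPS and with it. Without LPS, Siglecf went from 9.15 to 9.91, Prg2 from 6.78 to 6.08 and Ccr3 from 6.92 to 6.26. Each result below ran alongside these shifts, and their part in it was not tested. The split of calls depended on the scaling. Salt without LPS gave 2104 higher and 2426 lower, or 1335 and 3047 with each array centred on its median. LPS gave 2702 higher and 4819 lower at 290 mOsm, or 3857 and 3736 under cyclic loess, and 2707 and 4641 at 450 mOsm, or 3722 and 3660. In such bulk RNA, fewer cells of a type and less RNA per cell cannot be told apart.

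**Figure D1:**
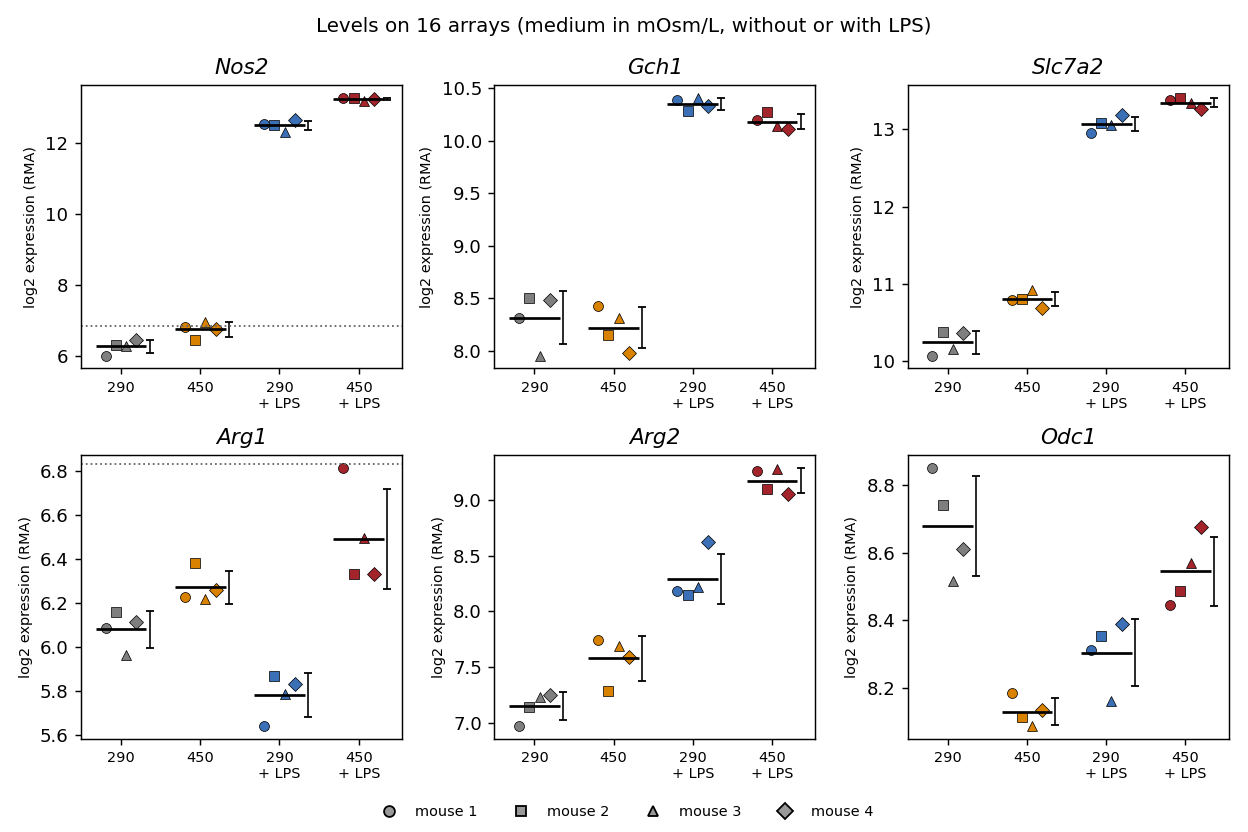
Log2 expression of the 6 measured genes on each of the 16 arrays, in panels with their own vertical axes; points are arrays with a shape for each mouse, horizontal lines are group means, error bars are SD (n = 4), and the dotted line is the filter level of 6.83. Nos2, Slc7a2 and Gch1 separate mainly by LPS, Arg2 climbs with both treatments, Odc1 is highest at 290 mOsm without LPS and lowest at 450 mOsm without LPS, and Arg1 lies below the filter level on every array.

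LPS at normal osmolarity raised Nos2 and Gch1, which serve nitric oxide production, and the arginine importer gene Slc7a2. Nos2 rose 75.8-fold, Slc7a2 rose 7.08-fold, Gch1 rose 4.11-fold and the mitochondrial arginase gene Arg2 rose 2.21-fold, while the polyamine enzyme gene Odc1 fell. All 5 tested genes were called, 4 higher and 1 lower, where 73.5% of all genes tested were called, 26.4% higher and 47.1% lower. For each of the 5 the groups did not overlap, as for 69.1% of the genes tested, 24.5% higher and 44.5% lower. Nos2 is among these 5 although it passed the filter through arrays with LPS and so had to differ. A call was thus common in this comparison. Among 10236 genes ordered by their log2 change from the highest, Nos2 stood in place 4, Slc7a2 in place 138, Gch1 in place 261 and Arg2 in place 642.

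Nos2, the source of high-output nitric oxide, read 6.00, 6.31, 6.27 and 6.45 at 290 mOsm in mice 1 to 4 and 12.54, 12.51, 12.32 and 12.64 with LPS. The groups were far apart, and none of the 4 arrays at 290 mOsm exceeded the filter level, so the fold rests on a dim baseline and can be understated. The log2 change was 6.24 ± 0.10 (SE, adjusted p = 6.97e-19) and was positive in 4 of 4 mice. Nos2 passed the filter through the arrays with LPS, apart from 1 array at 450 mOsm, and so had to differ.

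Slc7a2, the arginine importer, read 10.07, 10.38, 10.16 and 10.36 at 290 mOsm and 12.96, 13.08, 13.06 and 13.18 with LPS, without overlap. Its change was 2.82 ± 0.07 (adjusted p = 2.71e-16). With LPS it came close to 14.32, the highest value on any array, and differences in that range can be compressed. Gch1, the entry enzyme of cofactor synthesis, read 8.31, 8.50, 7.95 and 8.48 without LPS and 10.39, 10.28, 10.40 and 10.33 with it. It was more scattered before LPS (SD 0.25) than after (SD 0.06), and its change was 2.04 ± 0.10 (adjusted p = 3.88e-12).

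Arg2 read 6.98, 7.14, 7.23 and 7.25 at 290 mOsm and 8.18, 8.15, 8.22 and 8.63 with LPS. The groups did not overlap, the array of mouse 4 stood above the other 3 with LPS, and the change was 1.14 ± 0.11 (adjusted p = 2.12e-08). Odc1, the first enzyme of polyamine synthesis, read 8.85, 8.74, 8.52 and 8.61 without LPS and 8.31, 8.35, 8.16 and 8.39 with LPS. It was lower in 4 of 4 mice, with a change of -0.37 ± 0.07 (adjusted p = 0.000116). Over all genes the median change with LPS at 290 mOsm was -0.11, and under cyclic loess, which moved that median to 0.02, Odc1 was at -0.20 and was still called (adjusted p = 0.0127).

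Arg1, the cytosolic arginase gene, did not rise with LPS. It read 6.09, 6.16, 5.96 and 6.11 at 290 mOsm and 5.64, 5.87, 5.79 and 5.83 with LPS, all below the filter level. In a fit without the filter its change was -0.30 ± 0.09 (adjusted p = 0.00886 over 19272 genes) and was negative in 4 of 4 mice. At such levels a difference is compressed and its size is uncertain.

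At 450 mOsm, LPS raised the same 4 genes and Odc1 as well. All 5 tested genes were called higher, where 71.8% of genes were called, 26.4% higher and 45.3% lower. Again the groups of all 5 did not overlap, as for 66.2% of the genes tested, 24.4% higher and 41.8% lower. Here too Nos2 had to differ, since only 1 of its 4 arrays without LPS at 450 mOsm exceeded the filter level. Nos2 rose 90.6-fold (6.50 ± 0.10, adjusted p = 6.89e-19), Slc7a2 5.83-fold (2.54 ± 0.07, adjusted p = 1.4e-15), Gch1 3.90-fold (1.96 ± 0.10, adjusted p = 6.04e-12) and Arg2 3.02-fold (1.59 ± 0.11, adjusted p = 1.96e-10). Odc1 rose by 0.41 ± 0.07 (adjusted p = 4.06e-05), in the opposite direction to its change at 290 mOsm. Arg1 was at 0.22 ± 0.09 without the filter (adjusted p = 0.0515), with 3 of 4 mice higher and overlapping groups. That value fell under the threshold in 9 of 29 alternatives, with adjusted p from 0.0158 to 0.37. For LPS at 450 mOsm the median over all genes was -0.09.

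**Figure D2:**
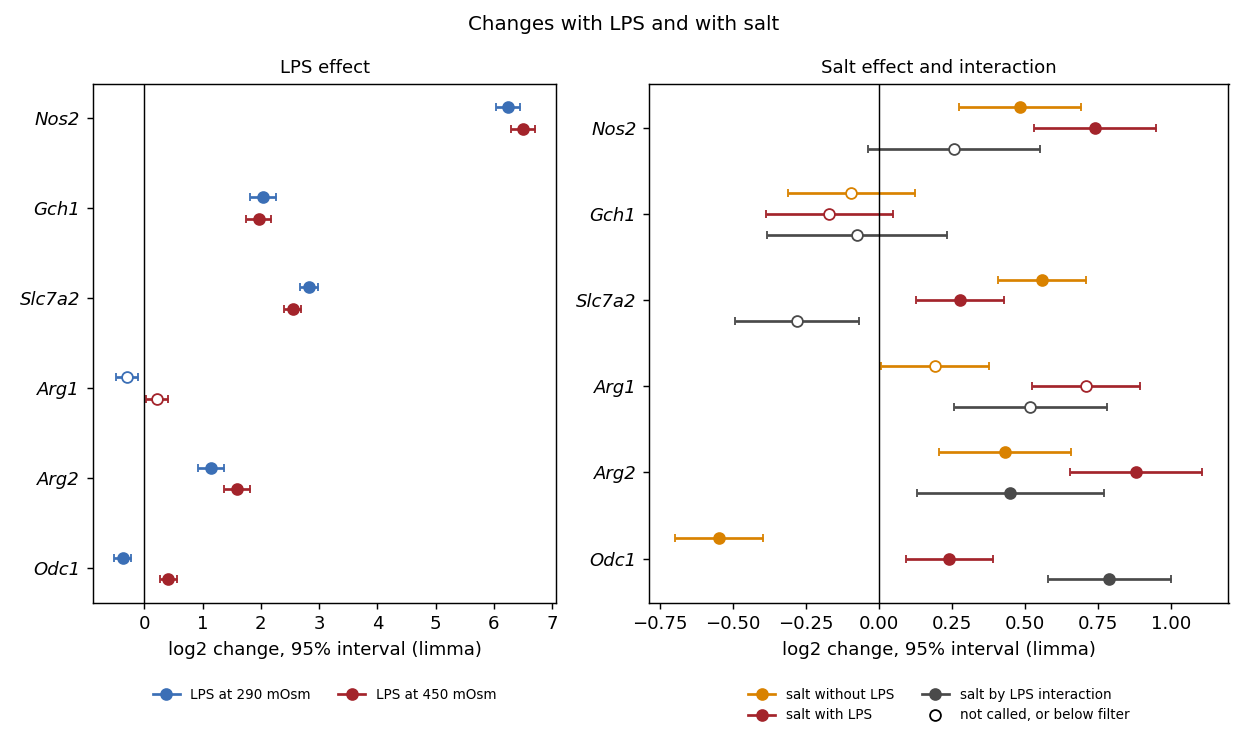
Log2 changes of the 6 measured genes with 95% intervals from limma, the LPS effect at each osmolarity on the left and the salt effects with their interaction on the right; filled points passed an adjusted p of 0.05 and open points did not or were below the filter. Nos2 has LPS changes of 6.24 and 6.50, and Odc1 changes sign between the salt comparisons without LPS (-0.55) and with LPS (0.24).

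Salt without LPS changed 4 of the 5 tested genes, 3 of them higher and 1 lower, where 44.3% of all genes tested were called, 20.6% higher and 23.7% lower. Slc7a2, Nos2 and Arg2 were higher at 450 mOsm, Odc1 was lower, and Gch1 did not pass. The size of the Odc1 fall placed it 396 from the lowest of 10236 genes, and the rise of Slc7a2 placed it 272 from the highest. The salt comparison without LPS and the LPS comparison at 290 mOsm share the arrays at 290 mOsm, so their values are set side by side only. The same holds for every pair of comparisons with a group in common.

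The Slc7a2 level at 450 mOsm was 10.79, 10.80, 10.92 and 10.69, above all 4 values at 290 mOsm. The rise was 1.47-fold (0.56 ± 0.07, adjusted p = 7.69e-06), with 4 of 4 mice higher. Nos2 read 6.81, 6.44, 6.94 and 6.76 at 450 mOsm. Its lowest array at 450 mOsm, from mouse 2, fell just short of the highest at 290 mOsm, from mouse 4, so the groups overlapped. Within mice the difference ran from 0.13 in mouse 2 to 0.81 in mouse 1, and the change was 0.48 ± 0.10 (adjusted p = 0.000858). Apart from 1 array, these Nos2 levels lay below the filter level.

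Arg2 read 7.75, 7.29, 7.69 and 7.59 at 450 mOsm, above every value at 290 mOsm. Its change was 0.43 ± 0.11 (adjusted p = 0.00387), and without replicate 1 the call was lost (0.32, adjusted p = 0.0557). Odc1 read 8.19, 8.11, 8.09 and 8.14 at 450 mOsm, the lowest group of the study, with an SD of 0.04. It was 1.46-fold lower than at 290 mOsm (-0.55 ± 0.07, adjusted p = 8.83e-06) in 4 of 4 mice. The other Odc1 probe set gave -0.64 (adjusted p = 3.11e-05).

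Gch1 read 8.43, 8.15, 8.31 and 7.98 at 450 mOsm, overlapping the values at 290 mOsm. It was higher in 2 mice and lower in 2, with a difference of -0.09 and a 95% interval from -0.31 to 0.12 (adjusted p = 0.47). Arg1 read 6.23, 6.38, 6.22 and 6.26, above all 4 values at 290 mOsm, by 0.19 ± 0.09 in the fit without the filter (adjusted p = 0.11). Among the 5 tested genes, Slc7a2 and Arg2 (higher) and Odc1 (lower) had groups that did not overlap, against 36.8% of all genes tested, 16.4% higher and 20.4% lower.

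With LPS, salt raised 4 of the 5 tested genes, where 38.6% of genes were called and 16.8% were called higher. Arg2 rose 1.84-fold, Nos2 1.67-fold, Slc7a2 1.21-fold and Odc1 1.18-fold, and Gch1 did not pass. By its log2 change Arg2 stood in place 114 and Nos2 in place 167 of 10236 genes. In the same arrays Arg1, still below the filter level, was 1.63-fold higher.

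Nos2 read 13.26, 13.27, 13.19 and 13.24 at 450 mOsm with LPS, each above the highest value at 290 mOsm with LPS, 12.64. The change was 0.74 ± 0.10 (adjusted p = 1.27e-05), with within-mouse differences from 0.61 to 0.87. These levels were the highest of Nos2 in the study and lay near the top of the scale. Slc7a2 read 13.38, 13.40, 13.34 and 13.26, also without overlap and near the top, with a change of 0.28 ± 0.07 (adjusted p = 0.00507). Arg2 read 9.26, 9.10, 9.28 and 9.05, above all values with LPS at 290 mOsm. The change was 0.88 ± 0.11 (adjusted p = 4.29e-06), and mouse 4, whose 290 mOsm array was high, had the smallest difference, 0.43.

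Odc1 read 8.45, 8.49, 8.57 and 8.68 at 450 mOsm with LPS, above the 8.16 to 8.39 at 290 mOsm with LPS. Its rise was 0.24 ± 0.07 (adjusted p = 0.0124), with 4 of 4 mice higher, and without replicate 3 the call was lost (0.18, adjusted p = 0.0709). Gch1 read 10.19, 10.28, 10.14 and 10.11, just below the 10.28 to 10.40 at 290 mOsm with LPS. Its difference was -0.17 with a 95% interval from -0.39 to 0.05 (adjusted p = 0.205), and the closest arrays differed only beyond the second decimal. It was lower in 4 of 4 mice, and was called lower when only these groups were fitted (adjusted p = 0.0225).

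Arg1 read 6.81, 6.33, 6.49 and 6.33 at 450 mOsm with LPS, against 5.64 to 5.87 at 290 mOsm with LPS. The groups did not overlap, mouse 1 stood highest, and the difference was 0.71 ± 0.09 without the filter (adjusted p = 6.36e-06 over 19272 genes). In 29 alternatives fitted without the filter it ranged from 0.56 to 0.79. For the 5 tested genes, which leave out Arg1, groups did not overlap in this comparison, against 39.4% of all genes tested. Of these, 4 were higher, against 17.1%, and Gch1 was lower, against 22.3%.

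**Figure D3:**
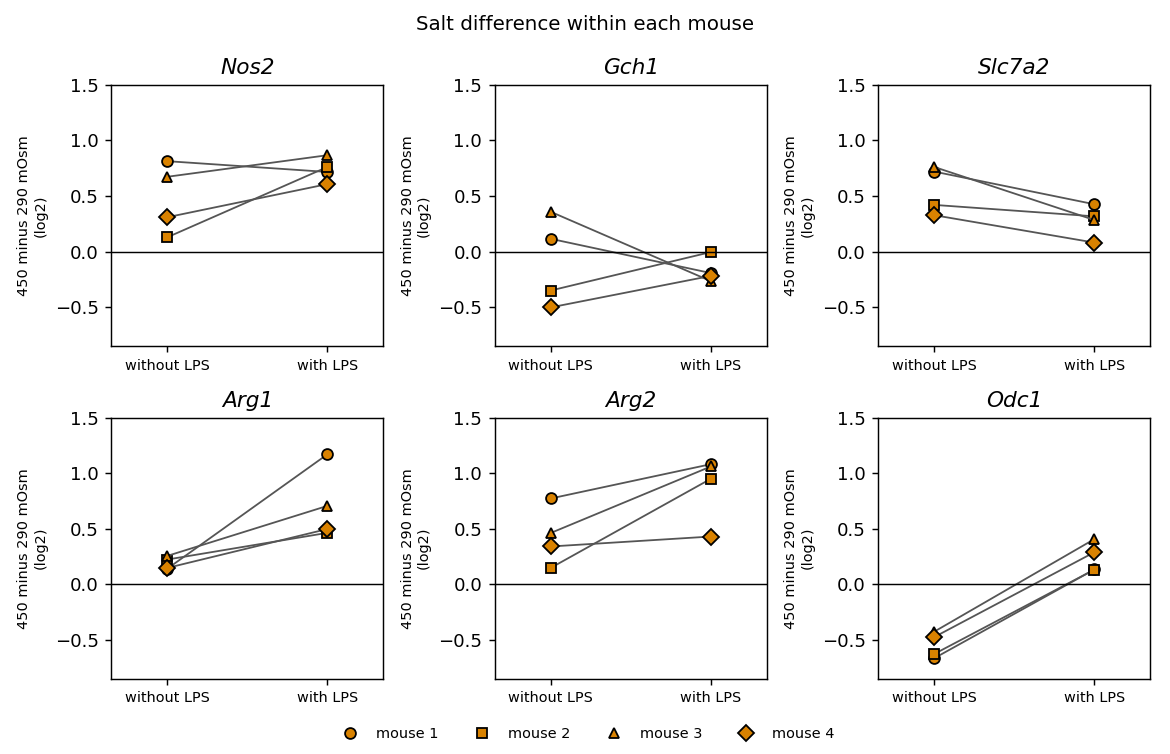
Salt difference (450 minus 290 mOsm, log2) within each of the 4 mice, without LPS and with LPS, joined by a line for each mouse. All 4 Odc1 lines cross from below 0 to above 0 and run nearly parallel, the Arg1 and Arg2 lines climb in every mouse, and the Gch1 lines run in both directions.

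The interaction asked whether the salt effect differed between cells without and with LPS. It was called for 2 of the 5 tested genes, Odc1 and Arg2, both higher, where 21.1% of genes were called and 10.7% were called higher. For Odc1 the difference between the salt effects was 0.79 ± 0.10 (adjusted p = 1.93e-05), and the 4 mice gave 0.80, 0.76, 0.83 and 0.76. In order of level, Odc1 was lowest at 450 mOsm (mean 8.13 ± 0.04, SD, n = 4), then at 290 mOsm with LPS (8.30 ± 0.10), at 450 mOsm with LPS (8.54 ± 0.10) and at 290 mOsm (8.68 ± 0.15). The lowest pair and the highest pair of groups overlapped, and the middle pair did not. The other Odc1 probe set, annotated to the same gene symbol, had means of 7.97, 8.14, 8.40 and 8.62 in the same order of groups and an interaction of 0.91 (adjusted p = 7.21e-05). Whether either probe set also detects a near-identical copy of Odc1 was not tested.

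For Arg2 the interaction was 0.45 ± 0.15 (adjusted p = 0.043), with values from 0.09 in mouse 4 to 0.80 in mouse 2. That call was lost in 14 of 30 alternatives, with adjusted p up to 0.216. Among them was each fit without replicate 1 (adjusted p = 0.0687), replicate 2 (0.216) or replicate 3 (0.176). It was also lost with no filter (0.0709) and in 10 fits that left out a single array (0.0569 to 0.0913). In order, Arg2 was lowest at 290 mOsm (mean 7.15 ± 0.12, SD, n = 4), then at 450 mOsm (7.58 ± 0.20), at 290 mOsm with LPS (8.29 ± 0.22) and, highest, for LPS at 450 mOsm (9.17 ± 0.11), with no overlap between neighbours.

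Slc7a2 had an interaction of the opposite sign, -0.28 ± 0.10 (adjusted p = 0.057), negative in 4 of 4 mice. It passed the threshold in 10 of 30 alternatives, among them quantile normalization (-0.34, adjusted p = 0.0226), cyclic loess (-0.30, adjusted p = 0.0443) and the mouse as a random replicate block (adjusted p = 0.0473). With the mouse as a fixed replicate block, a paired fit, it was not called (adjusted p = 0.0578). Nos2 had an interaction of 0.26 ± 0.14 (adjusted p = 0.222, 3 of 4 mice higher) and Gch1 of -0.08, with a 95% interval from -0.38 to 0.23. Arg1 had 0.52 ± 0.12 in the fit without the filter (adjusted p = 0.00944, 4 of 4 mice higher). Leaving out replicate 1 (0.35, adjusted p = 0.0708) or replicate 3 (0.54, adjusted p = 0.0516) ended that call. In order, Arg1 was lowest at 290 mOsm with LPS (5.78 ± 0.10), then 290 mOsm (6.08 ± 0.08), 450 mOsm (6.27 ± 0.08) and 450 mOsm with LPS (6.49 ± 0.23), of which the last pair overlapped.

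Other genes of nitric oxide synthesis, its cofactor and its sensing were followed as a list. The neuronal and endothelial synthase genes Nos1 (6.07 to 6.72 over all arrays) and Nos3 (6.17 to 6.74) lay below the filter on every array. Of 18 genes in this list, 15 had a probe set and 9 were tested. With LPS, 1 was called higher and 6 lower at each osmolarity (medians -0.27 and -0.24, against -0.11 and -0.09 for all genes), where 26.4% of all genes were called higher at each osmolarity, and 47.1% lower at 290 mOsm and 45.3% lower at 450 mOsm. The 1 higher gene, Pde5a, passed the filter only through arrays with LPS and so had to differ. Under cyclic loess the counts were 2 higher and 4 lower at 290 mOsm, and 1 higher and 2 lower at 450 mOsm. Over all 10206 genes in that scaling, 3857 were higher and 3736 lower at 290 mOsm, and 3722 and 3660 at 450 mOsm. Qdpr, which recycles tetrahydrobiopterin, fell with LPS by 0.65 ± 0.06 at 290 mOsm and by 0.75 ± 0.06 at 450 mOsm, and with salt by 0.19 ± 0.06 without LPS (adjusted p = 0.0219) and by 0.29 ± 0.06 with LPS (adjusted p = 0.00151). Pts, a further enzyme of that cofactor's synthesis, fell with LPS at 290 mOsm by 0.45 ± 0.09. Salt without LPS gave 2 higher and 4 lower (median -0.03), where 20.6% of all genes were higher and 23.7% lower. Salt with LPS gave 2 higher and 1 lower (median 0.09), where 16.8% were higher and 21.8% lower, and the median of all genes was 0.00 in each.

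Pde5a, whose product degrades the cyclic GMP made in response to nitric oxide, had group means of 6.45 at 290 mOsm, 5.71 at 450 mOsm, then with LPS 7.18 at 290 mOsm and 8.43 at 450 mOsm. Both means without LPS lay below the filter level, so its differences against them are compressed and their size is uncertain. In the fit, salt lowered it without LPS (-0.74 ± 0.10, adjusted p = 1.05e-05) and raised it with LPS (1.25 ± 0.10, adjusted p = 2.18e-08), with an interaction of 1.99 ± 0.14 (adjusted p = 2.36e-08). Nostrin, whose product binds the endothelial nitric oxide synthase, fell with LPS at 290 mOsm by 0.74 ± 0.09 (adjusted p = 4.82e-07) and with salt without LPS by 0.36 ± 0.09 (adjusted p = 0.00362), and had an interaction of 0.58 ± 0.12 (adjusted p = 0.00244).

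Among genes of arginine supply and use, all 18 had a probe set and 10 were tested. LPS at 290 mOsm raised 1 and lowered 7 (median -0.32), where 26.4% of all genes were higher and 47.1% lower. Under cyclic loess it raised 2 and lowered 5, where 3857 of 10206 genes were higher and 3736 lower. LPS at 450 mOsm raised 3 and lowered 4 (median -0.12), where 26.4% were higher and 45.3% lower. Under cyclic loess it raised 4 and lowered 4, where 3722 of 10206 genes were higher and 3660 lower. Slc3a2, the partner chain of several amino acid transporters, rose with LPS by 0.52 ± 0.06 at 290 mOsm (adjusted p = 2.3e-07) and by 0.51 ± 0.06 at 450 mOsm. Slc7a1, the constitutive arginine importer, behaved like Odc1 in sign: salt lowered it without LPS (-0.31 ± 0.06, adjusted p = 0.000393) and raised it with LPS (0.25 ± 0.06, adjusted p = 0.00276). Its interaction was 0.56 ± 0.08 (adjusted p = 8.77e-05). LPS lowered Slc7a1 at 290 mOsm (-0.40 ± 0.06, adjusted p = 5.42e-06) and raised it at 450 mOsm (0.15 ± 0.06, adjusted p = 0.0268). Slc7a6, an exchanger of cationic and neutral amino acids, was higher with salt in each condition (0.60 ± 0.06 without LPS and 0.52 ± 0.06 with LPS). LPS lowered Slc7a6 by 0.57 ± 0.06 at 290 mOsm (adjusted p = 4.15e-08) and by 0.64 ± 0.06 at 450 mOsm (adjusted p = 7.33e-09). Asl, which completes arginine synthesis after the Ass1 step, fell with LPS by 0.32 ± 0.06 at 290 mOsm (adjusted p = 4.46e-05) and by 0.30 ± 0.06 at 450 mOsm (adjusted p = 9.65e-05). In this list salt gave 1 higher and 4 lower without LPS (median -0.08), where 20.6% of all genes were higher and 23.7% lower. With LPS it gave 3 higher and 1 lower (median 0.07), where 16.8% were higher and 21.8% lower.

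Of 23 genes of ornithine, proline and polyamine metabolism, 16 had a probe set and 13 were tested. LPS raised 2 and lowered 8 at 290 mOsm (median -0.38), where 26.4% of all genes were higher and 47.1% lower. At 450 mOsm it raised 3 and lowered 8 (median -0.35), where 26.4% were higher and 45.3% lower. Under cyclic loess 7 were lower at each osmolarity, where 3736 of 10206 genes were lower at 290 mOsm and 3660 at 450 mOsm. Srm, the spermidine synthase gene downstream of Odc1, fell by 1.40 ± 0.08 at 290 mOsm (adjusted p = 1.84e-11) and by 1.06 ± 0.08 at 450 mOsm. Oat, which encodes the enzyme that takes ornithine towards proline and glutamate, fell by 0.69 ± 0.06 and 0.79 ± 0.06. The polyamine transporter genes Atp13a2 and Atp13a3 fell at 290 mOsm by 1.20 ± 0.07 and 1.07 ± 0.07. Smox, the spermine oxidase gene, rose by 0.36 ± 0.08 at 290 mOsm and 0.64 ± 0.08 at 450 mOsm.

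Salt without LPS lowered 4 of these 13 genes and raised 0 in limma (median -0.09), where 23.7% of all genes were lower and 20.6% higher. With LPS it lowered 4 and raised 3 (median -0.05), where 21.8% were lower and 16.8% higher. Without LPS, Srm fell by 0.57 ± 0.08 (adjusted p = 1.92e-05) and Azin1, an inhibitor of the antizymes that degrade the Odc1 enzyme, by 0.41 ± 0.06 (adjusted p = 1.37e-05). Eif5a, whose protein carries a modification made from spermidine, fell by 0.35 ± 0.09. With LPS, Srm was lower by a smaller amount (-0.24 ± 0.08, adjusted p = 0.0242). The interaction was positive and called for 4 of the 13, Azin1 (0.36 ± 0.08, adjusted p = 0.0029), Srm (0.33 ± 0.11, adjusted p = 0.0426), Atp13a3 (0.30 ± 0.09) and Dhps (0.28 ± 0.07). It was negative and called for 0, where 10.7% of all genes were called higher and 10.4% lower. Quantile normalization and cyclic loess each gave 3 higher, where 1096 of 10208 and 1065 of 10206 genes were higher. Centring each array on its median gave 5, where 1101 of 10208 were higher.

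**Figure D4:**
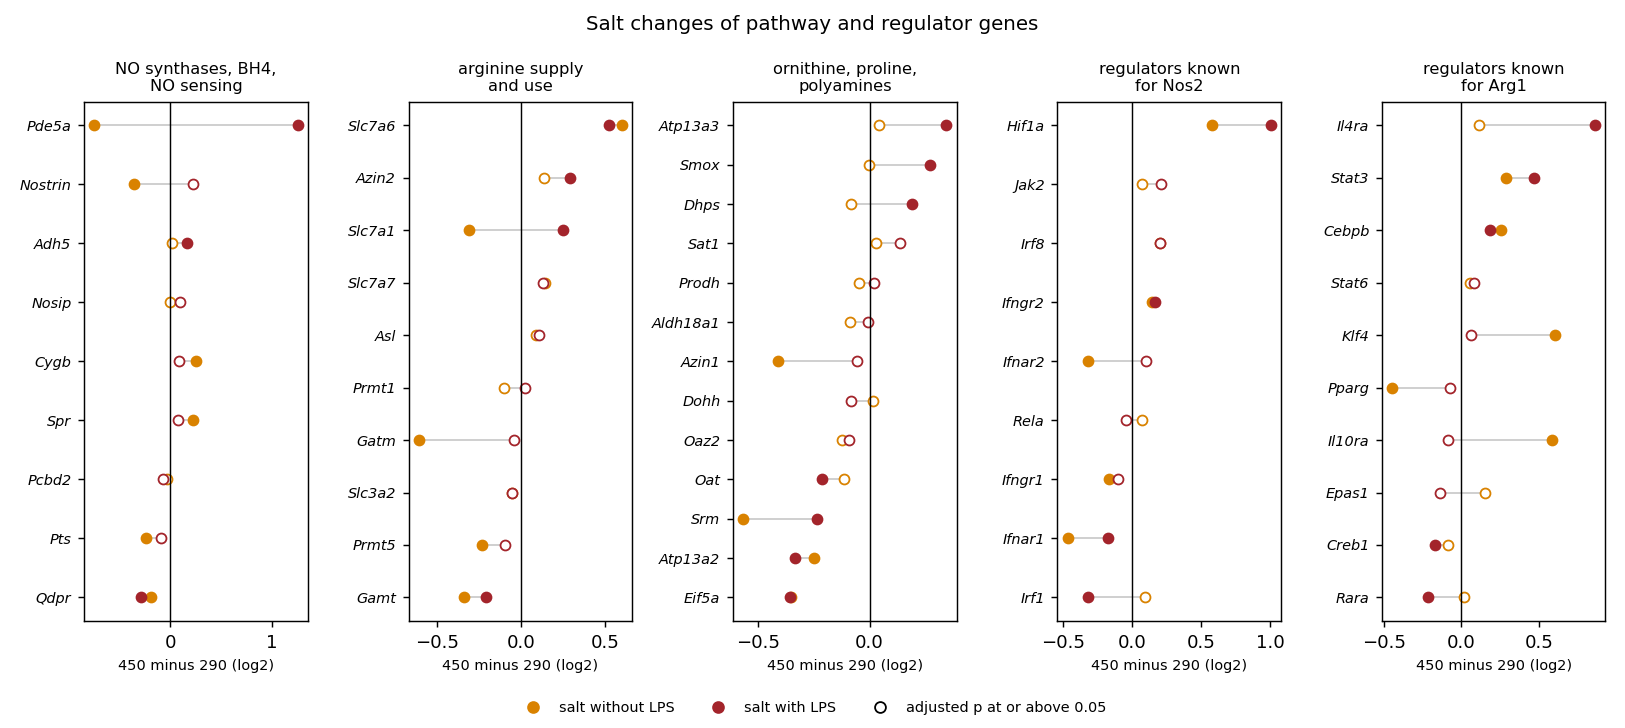
Salt change (450 minus 290 mOsm, log2) of every tested gene in 5 lists, without LPS in orange and with LPS in red; filled points passed an adjusted p of 0.05 in limma. Pde5a and Slc7a1 lie on opposite sides of 0 in the 2 conditions, and Hif1a, Stat3 and Slc7a6 lie above 0 in both.

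Of 12 regulators known to act on Nos2, 10 had a probe set and 9 were tested. LPS raised 7 and lowered 1 at 290 mOsm (median 0.75), and raised 8 and lowered 1 at 450 mOsm (median 0.94), where 26.4% of all genes were higher at each osmolarity. At 290 mOsm Jak2 rose by 2.34 ± 0.08, Irf1 by 2.30 ± 0.05, Irf8 by 1.30 ± 0.09 and Hif1a by 0.86 ± 0.08, while the interferon gamma receptor gene Ifngr1 fell by 1.59 ± 0.06. Ifnb1 lay below the filter, between 5.43 and 6.17. Salt had a mixed effect, with 2 higher and 3 lower without LPS (20.6% and 23.7% of all genes) and 2 higher and 2 lower with LPS (16.8% and 21.8%). Cyclic loess gave 4 higher and 2 lower without LPS, where 2201 of 10206 genes were higher and 2189 lower. With LPS it gave 5 higher and 1 lower (1795 and 2092 of all genes), so the balance of directions depends on the scaling. Hif1a, the oxygen-regulated factor subunit, rose with salt by 0.58 ± 0.08 without LPS (adjusted p = 1.27e-05) and by 1.00 ± 0.08 with LPS (adjusted p = 1.88e-08). Irf1 was lower with salt in the presence of LPS (-0.32 ± 0.05, adjusted p = 0.000148).

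Regulators known to act on Arg1 were tested for 10 of 11. LPS raised 4 and lowered 4 at 290 mOsm (median -0.06), where 26.4% of all genes were higher and 47.1% lower, and raised 3 and lowered 5 at 450 mOsm (median -0.16), where 26.4% were higher and 45.3% lower. Under cyclic loess it raised 5 and lowered 4 at 290 mOsm, where 3857 of 10206 genes were higher and 3736 lower. At 450 mOsm it raised 5 and lowered 5 in that scaling, where 3722 genes were higher and 3660 lower. Stat3 rose by 1.39 ± 0.07 and Cebpb by 0.98 ± 0.07 at 290 mOsm, while Pparg fell by 2.07 ± 0.09. With salt and no LPS, 4 rose and 1 fell (median 0.13, against 20.6% and 23.7% of all genes), led by Klf4 (0.60 ± 0.08) and Il10ra (0.58 ± 0.07), and Pparg fell by 0.45 ± 0.09 (adjusted p = 0.000535). With salt and LPS, 3 rose and 2 fell (median -0.01, against 16.8% and 21.8% of all genes). Il4ra, the receptor chain for interleukins that induce Arg1, rose by 0.86 ± 0.09 there (adjusted p = 4.07e-07) and had an interaction of 0.75 ± 0.12 (adjusted p = 0.000206). Stat3 rose by 0.47 ± 0.07 with LPS and 0.29 ± 0.07 without it.

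Genes with the nearest profiles were found by the root mean square difference of log2 values over the 16 arrays, after each gene was centred on its own mean. Odc1 was nearest to Hsph1, a chaperone gene, at 0.10, against a spread of 0.23 of Odc1 about its own mean. Hsph1 had means of 10.00 at 290 mOsm, 9.59 at 450 mOsm, then with LPS 9.56 at 290 mOsm and 9.99 at 450 mOsm, followed by Fam8a1 (0.13) and Pogk (0.13). Nos2 was nearest to Il12b (0.40), Ifi205 (0.42) and Iigp1 (0.45), against its own spread of 3.20. Gch1 was nearest to the NF-kB subunit gene Nfkb2 (0.13), Naa25 (0.14) and Irf1 (0.14), against 1.01. Slc7a2 was nearest to the signalling adaptor gene Traf1 (0.15), Ifi35 (0.18) and Batf2 (0.19), against 1.36. Arg2 was nearest to the lysosomal channel gene Mcoln2 (0.17), Ampd3 (0.20) and the protease gene Furin (0.20), against 0.78. The likeness is a description over arrays that fall into the same 4 groups.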

How the data were processed

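Total RNA of 16 cultures was measured on arrays, 1 per culture. The authors deposited log2 values per probe set, computed with RMA in the oligo package, per the submitters' processing notes. The sources used here do not give its version, any filter or a genome build. Because RMA equalises the arrays' distributions, a shift common to most transcripts is largely lost, and signals at either end of the range are compressed. The number of arrays limits the precision.

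Of 22549 probe sets, the platform annotation gives 1 symbol for 20646, several for 551 and none for 1352, and 20596 were found by Entrez identifier in the RefSeq gene table, which changed 0 symbols. Each gene was represented by its single-symbol probe set with the highest mean, and of the 7 genes only Odc1 had more than 1. The filter required at least 4 arrays above 6.83, the median of all values. Arg1 is below it, so its values come from a fit without the filter.

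limma 3.58.1 in R 4.3.3 fitted a mean for each of the 4 groups, with 12 residual and 5.53 prior degrees of freedom, and 5 contrasts. Tests were two-sided and adjusted over all genes by Benjamini-Hochberg. Errors are limma standard errors unless marked SD. Changes are log2 differences.

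The genes, the lists and the rule for named genes were chosen with earlier results of these data known. That rule takes the 7 genes, up to 4 called genes with the smallest adjusted p per list, contrast and direction, and the 3 nearest profiles of each tested gene. Genes below the filter that are named for their absence, and markers named for the cell check, were chosen after their values were seen.

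Arrays with the same replicate number come from 1 mouse per the labels, which pairs them. The deviations of such arrays from their group means had a median r of 0.0953 over 24 pairs (-0.146 to 0.433), against -0.0351 for different mice. The paired fit was run as an alternative, besides other filters, scalings, variance models and leaving out mice or arrays.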

Additional observations from a re-analysis of the deposited data

Results flagged for a closer look

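Odc1 had a salt effect that differed between cells without and with LPS, by 0.79 on the log2 scale (limma interaction, adjusted p = 1.93e-05). It was called in the main fit and in all 31 alternatives run, with values from 0.73 to 0.91.

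Arg2 had a salt effect that was larger with LPS than without, by 0.45 (limma interaction, adjusted p = 0.043), a call that was lost in 14 of 30 alternatives.

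The Arg2 value of replicate 4 at 290 mOsm with LPS, 8.63, stood apart from the other 3 arrays of its group (8.15 to 8.22). Its gap was 0.859 of the group's range, above Dixon's 95% critical value for 4 samples. Groups were examined 24 times, and chance alone flags about 1 in 20. Without that array, the Arg2 salt effect with LPS was 0.99 (adjusted p = 6.47e-07) and its interaction 0.56 (adjusted p = 0.00545).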

How the results depend on the processing

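Of 919 recomputed values of the 30 changes of single genes, 876 kept their direction and side of the threshold, 18 lost the call, 21 gained it and 4 reversed. The reversals were all of Gch1, which was never called in those comparisons: 0.041 for salt without LPS without replicate 4 (-0.25 to 0.041 over the fits that left out a mouse or an array), and for the interaction 0.0017 without replicate 1, 0.11 without replicate 3 and 0.043 without 290 mOsm replicate 3 (-0.22 to 0.11). The interaction was called for 2 of the tested genes, for 1 with no filter, and for 1 to 2 when a mouse or an array was left out. Over all 30 alternatives it was called for 1 to 3 genes. A stricter filter, at the 65th percentile, gave 3, of which 2 were higher and 1, Slc7a2, was lower. The genes called also varied: without 290 mOsm replicate 2, Slc7a2 was called and Arg2 was not. Interaction calls over all genes numbered 2161, and from 1351 (without replicate 2) to 2259 when a mouse or an array was left out. With the mouse as a fixed replicate block the Arg2 interaction stayed called (adjusted p = 0.0328), and as a random block the Slc7a2 interaction was called (adjusted p = 0.0473). The number of arrays and the compression of values near both ends of the scale limit Nos2 without LPS, Arg1, and Nos2 and Slc7a2 with LPS. The fits of Arg1 under other settings and the other Odc1 probe set were chosen after the data had been seen. The causes of these changes were not tested.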

Other observations

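A list of 8 genes of amino acid and osmotic stress linked to arginine use was fully tested. Salt without LPS raised 4 and lowered 4, where 44.3% of all genes were called, and salt with LPS raised 2 and lowered 2, where 38.6% were called. Slc38a2, a neutral amino acid transporter gene known to answer osmotic stress, rose with salt by 0.90 ± 0.06 without LPS (limma, adjusted p = 1.8e-09) and by 0.39 ± 0.06 with LPS, and the interaction was -0.52 ± 0.08 (adjusted p = 0.000187). Asns, the asparagine synthetase gene, fell with salt by 0.47 ± 0.10 without LPS and by 0.70 ± 0.10 with LPS. Slc7a5, a transporter of large neutral amino acids, was at -0.28 ± 0.08 without LPS and 0.30 ± 0.08 with LPS, both called, with an interaction of 0.58 ± 0.11 (adjusted p = 0.000826). Slc7a11, the cystine importer gene, fell with salt without LPS by 0.52 ± 0.11 and rose with LPS by 1.11 ± 0.11 at 290 mOsm and by 1.36 ± 0.11 at 450 mOsm. LPS raised 1 and lowered 2 of the list at 290 mOsm, where 73.5% of all genes were called. Under cyclic loess it raised 4 and lowered 1 there, where 3857 of 10206 genes were higher and 3736 lower. At 450 mOsm LPS raised 2 and lowered 3, where 71.8% were called. Under cyclic loess it raised 3 and lowered 2 there, where 3722 of 10206 genes were higher and 3660 lower.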
